A study of Gasterosteus aculeatus with 12 samples.

Results

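The surroundings of the *HOXDB* cluster were taken as the sites on chromosome VI between positions 17500000 and 18000000 of the stickleback assembly *gasAcu1-4*, leaving out every site within 4 kb of the 3 positions that stand for *HOXD11B* (17756571), *HOXD9B* (17764664) and *HOXD4B* (17783616). Positions are counted from 1 at the start of the chromosome. A site had to be listed in at least 6 of the 12 count files. Of 540774 sites in the series, 498075 met that last condition and 429 of these lay in the neighbourhood. Another 69 sites lay within 4 kb of the *HOXDB* positions and serve here only as a comparison.

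The 12 samples are whole F1 embryos at 72 hours post fertilization, stage 19/20, from a cross between LITC sticklebacks and a high-spine stock. LITC is an anadromous, low-spine population, and the high-spine stock descends from a Boulton by Bodega Bay cross and was selected for high spine number. The study made separate crosses for embryos and for fin tissue, and the labels do not name the parents of these embryos. Neither stock was inbred, so siblings may carry different haplotypes of either parent. RNA of each embryo was sequenced and reads with the reference and with the alternate base were counted at each site. There is no treated group, and the comparison is between the 2 bases read within the same embryo.

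Hox genes lie in clusters and encode transcription factors that set position along the body axis. Regulatory DNA of a vertebrate HoxD cluster extends far into the flanking chromosome, where unrelated genes such as *lnpk* and *mtx2* are found. In an F1 hybrid both parental copies share 1 cell, so an unequal number of reads from the copies is the usual sign of differences that act in *cis*, and the genes next door show whether such an inequality is local. In the RefSeq annotation of another stickleback assembly (fGasAcu3.hap1.1), 3 protein-coding genes without a symbol lay between *lnpk*, which encodes a protein of the endoplasmic reticulum, and *mtx2*, which encodes a mitochondrial membrane protein. Coordinates cannot be carried over from that assembly, and the count files name no genes, so the sites below are given by position. RNA in whole embryos also cannot tell fewer expressing cells from less RNA per cell.

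The neighbourhood was read in patches. Scaled to the total of counted reads in the embryo (RPM), it took 273 to 390 RPM (median 334, mean 332 ± 38.7 SD, n = 12 embryos), against 29.1 to 44.2 (median 35.8) at the *HOXDB* sites. Each embryo had 16302333 to 27003127 counted reads over all sites, and embryo 7 had the fewest. Pooled over the embryos, a neighbourhood site had a median of 112 reads, with a range of 5 to 2472, against 68 at a *HOXDB* site and 77 in the rest of the genome. Of the 429 sites, 321 were listed in all 12 files.

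The sites fell into 23 stretches when a gap above 2 kb ended a stretch. The longest gaps measured 68.8, 58.8 and 42.5 kb. Below the cluster, the stretch from 17676270 to 17685246 held 23 sites, and the stretch from 17736158 to 17746477, the nearest on that side, held 46. A site is written below as its reference base, its position and its alternate base. Directly above *HOXD4B*, 12 sites between 17787687 and 17788983 included the deepest site of all, C17788096A with 2472 reads. Farther up, 45 sites lay between 17826143 and 17835226, 83 between 17868208 and 17882554, 80 between 17892078 and 17894637, 43 between 17960921 and 17965420, and 16 between 17992915 and 17994268. The stretches not named so far held 7 sites or fewer, apart from 38 shallow sites between 17774512 and 17779535. The sites nearest to the excluded cluster, T17746477C, C17770768A, C17779535G and T17787687G, had at most 10 reads in any embryo, and so had no genotype call; the same holds for the lowest site, A17556175G.

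**Figure D1:**
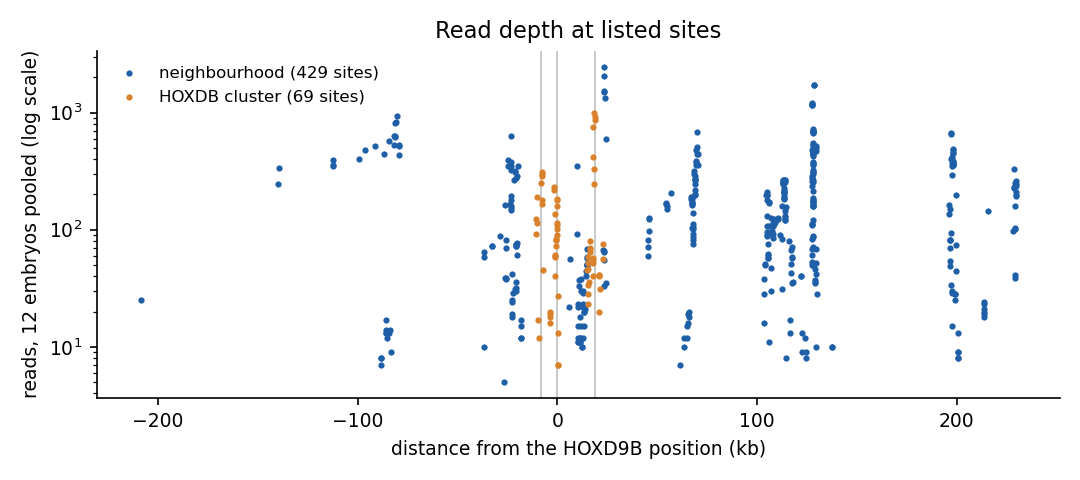
Reads at each listed site, summed over the 12 embryos (vertical axis, log scale), against the distance from the HOXD9B position in kb (horizontal axis); grey lines mark the 3 HOXDB positions. Neighbourhood sites (blue) form separate stretches with depths of 5 to 2472 reads, and the deepest lies just above the HOXDB sites (orange).

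A genotype was called in an embryo with more than 12 reads: heterozygous when the rarer base made up at least 10% of the reads, homozygous at 5% or less, and uncalled in between. By this measure 78 sites were called in all 12 embryos, 180 in some and 171 in none. Among the 78 fully called sites, 40 were heterozygous in every embryo (51.3%). In the rest of chromosome VI this share was 14.9% of 3919 sites, and in the rest of the genome 18.6% of 105568 sites. Sites of 1 stretch are mostly inherited together, so these percentages are a description of 1 region and no test was made of them. Per embryo, heterozygous calls made up 61.1 to 74.2% of the calls in the neighbourhood (median 65.8%) and 46.8 to 56.7% in the rest of the genome (median 51.8%). The lowest value in the neighbourhood was that of embryo 3 and the highest that of embryo 7.

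The remaining fully called sites showed how the embryos divide. Only 2 sites were homozygous in all 12 embryos, and 36 had both heterozygous and homozygous embryos. At 22 of these embryo 7 stood alone against the others. At 9, embryos 1, 2, 3, 5 and 11 stood against the other 7 embryos, and at 3, embryos 2, 3, 5 and 11 stood against the other 8. The last 2 sites followed none of these splits. With sites called in at least 6 embryos included, and 1 departing embryo allowed, 82 of 96 sites that were heterozygous in some embryos and homozygous in others followed 1 of the 3 splits. Of the 14 that did not, 13 lay in the stretches at 17892078 and 17960921. The splits were read from the fully called sites among the 96, so those sites followed by construction. Uncalled embryos were not counted as departures. The split of embryo 7 was followed at 33 sites, and embryo 7 was called apart from all others at 25.

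The division of embryos 2, 3, 5 and 11 from embryos 4, 6, 8, 9, 10 and 12 was seen from 17677743 to 17882043 and at 1 site farther up, 17964369, and embryo 1 changed sides within it. At G17684034T, in the stretch at 17676270, embryos 2, 3, 5 and 11 had only the reference base and all 8 other embryos were heterozygous, embryo 1 among them with 21 alternate and 41 reference reads. At A17834566G, above the cluster, the alternate base was again missing in embryos 2, 3, 5 and 11, and now also in embryo 1, which had 0 alternate and 40 reference reads. To place the change, reads were pooled over embryos 2, 3, 5 and 11 and over embryos 4, 6, 8, 9, 10 and 12. At 8 sites up to 17764215, a site just below the *HOXD9B* position and not itself counted among the 429, embryo 1 read like embryos 4, 6, 8, 9, 10 and 12. From 17810522 on it read like embryos 2, 3, 5 and 11 at 56 sites. No site was out of this order, and the change therefore lay within 46.3 kb that hold the *HOXD9B* and *HOXD4B* positions. The reads nearest to the change were few: 0 alternate and 11 reference reads at 17764215, and 4 of each at 17810522. The lower limit rests on 17764215 alone, where 15.9% of raw reads were of low mapping quality. The next site below that placed embryo 1 was 17744455, which lies below the *HOXD11B* position.

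A second change concerned embryo 7, whose haplotype from 1 parent differed from the one that the 11 other embryos shared. Up to 17869601 embryo 7 fell with embryos 4, 6, 8, 9, 10 and 12 wherever it had enough reads. At 17869635 it had 0 alternate and 18 reference reads, while every other embryo carried the alternate base. From 17877812 on, 25 sites set it apart from all other embryos, 17 where it alone was heterozygous and 8 where it alone was homozygous. Sites at which both haplotypes carry the same base cannot show such a change, so only its upper limit is fixed. On chromosome VI outside the interval, embryo 7 remained alone up to 18855007, the last such site. Below the interval embryo 9 alone differed from the others at 41 sites, the last at 17129488, which is 370.5 kb before the start of the interval. At sites called in all 12 embryos, embryo 11 was last seen with embryos 1, 2, 3 and 5 at 17877895. It was first apart from them at 18024063, beyond the interval. At 17878169, where embryo 1 was uncalled, embryo 11 still read like embryos 2, 3 and 5, with 0 alternate and 22 reference reads. A further change therefore lay somewhere between 17878169 and 18024063. Among the 78 fully called sites of the neighbourhood, none set a single embryo apart other than embryo 7. Which parent carries which haplotype is not in the labels, and the genotypes came from RNA reads alone.

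**Figure D2:**
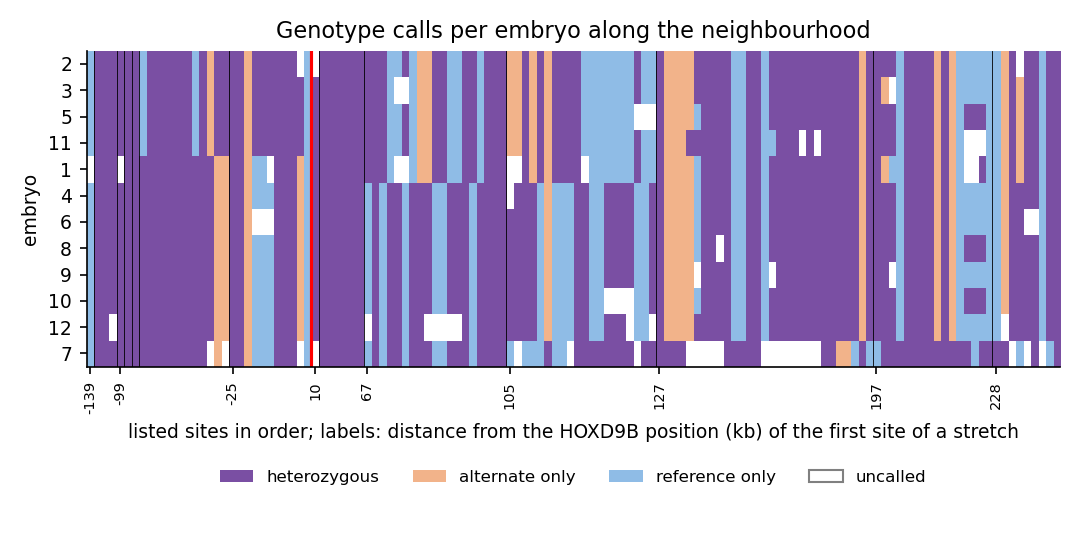
Genotype calls of the 12 embryos (rows, embryo number) at the 130 neighbourhood sites called in at least 10 embryos (columns, in order along the chromosome); black lines separate stretches and the red line marks HOXD9B. Embryo 1 sides with embryos 4, 6, 8, 9, 10 and 12 left of the red line and with embryos 2, 3, 5 and 11 to the right of it, and embryo 7 departs from all others on the right.

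Allele shares were examined next, at sites heterozygous in at least 6 embryos. The alternate base made up a median of 47.8% of the reads over 114 such sites in the neighbourhood, 48.6% over 3216 in the rest of chromosome VI and 48.3% over 91382 in the rest of the genome. The median per embryo was taken over all sites called heterozygous in that embryo. It was 44.1 to 47.1% in the neighbourhood, against 47.4 to 48.2% in the rest of the genome. Without the densely listed sites described below, the neighbourhood's range was 45.8 to 48.9%. Without the stretches at 17892078 and 17960921, the lowest embryo median was 47.2%. Those stretches were singled out by their edgeR calls, described below, all of which had fewer alternate reads. A higher share without them therefore follows in part from that choice. Over all sites, reads with the reference base were slightly more frequent in the neighbourhood, the rest of chromosome VI and the rest of the genome. The median log2 ratio of alternate to reference reads over all 20317 sites tested in the genome was -0.07. At sites heterozygous in all 12 embryos the 2 counts were compared with edgeR's quasi-likelihood test, with the embryo as a block and Benjamini-Hochberg adjustment over those 20317 sites. In the neighbourhood 11 of 40 sites passed an adjusted p of 0.05 (27.5%), and the share over the whole genome was 34.2%. All 11 had fewer alternate than reference reads. Calls in that direction were thus 11 of 40 tested sites, against 4765 of 20317 in the genome (23.5%). Calls with a log2 ratio of at least 1 in size were 4 of the 40 tested sites, against 1138 of 20317 in the genome (5.60%). Without embryo 7, edgeR called 21 of 54 sites, 4 of them with more alternate reads, and 7103 of 21873 in the genome. The neighbourhood's share was then the larger. Embryo 7 had the fewest reads, and at 8 sites it alone was homozygous while the others were heterozygous. At the *HOXDB* sites the fit with all embryos called 5 of 7, 4 with more and 1 with fewer alternate reads.

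The 11 calls were not spread along the interval. None of 16 tested sites below *HOXD11B* passed, 1 of 12 within 100 kb above *HOXD4B* did, and 10 of 12 farther up did. Those 10 lay in only 2 stretches, 6 of 6 tested sites between 17892078 and 17894637 and 4 of 5 between 17960921 and 17965420. In these 2 stretches the log2 ratios ran between -1.97 and 0.47, and in the other stretches between -0.31 and 0.27 with standard errors of 0.06 to 0.19. Sites closer together than a read are often covered by the same molecules, so neighbouring sites are not separate measurements.

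Outside the 2 stretches the sites that edgeR could test lay close to an equal split. The alternate share of these 29 sites was between 44.6 and 54.9% (median 48.9%), and the exact 95% interval of 27 of them held 50%. Over all 74 sites heterozygous in at least 6 embryos there, the pooled share ran from 23.6 to 63.6% (median 49.5%). The intervals given here cover counting error only. Sites informative in only some embryos were tested by flipping the signs of the log2 ratios over the heterozygous embryos in every combination, an exact permutation test that counts both directions. It passed 15 of 114 sites in the neighbourhood at an adjusted p of 0.05, and 5.46% of 94730 sites in the genome. Among sites heterozygous in 6 to 11 embryos it passed 7 of 74, and 1.60% in the genome. All of these lay in the 2 stretches. Outside them 0 of 74 sites passed, 6 had an unadjusted p under 0.05, and edgeR called 1 of its 29. The 2 stretches were singled out by their edgeR calls, so the low counts outside them follow in part from that choice. Among the sites that edgeR tested within 100 kb of the *HOXDB* positions, the largest log2 ratio in the neighbourhood was 0.31 in size, while the 7 tested *HOXDB* sites had 0.27 to 1.59. Sites informative in fewer embryos were not in that fit, and some of them, such as A17741684C, had larger ratios.

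Single sites varied between embryos around an equal split. T17684513C, the deepest heterozygous site of the 17676270 stretch, had an alternate share of 39.3 to 63.6% over the 12 embryos (median 52.0%), and 7 embryos had more alternate reads, 4 fewer and 1 equal numbers. Its edgeR log2 ratio was 0.07 (SE 0.11, adjusted p = 0.677). A17740181C, in the nearest stretch below the cluster, had 34.8 to 65.6% (median 53.9%) and a log2 ratio of 0.27 (SE 0.15, adjusted p = 0.171 in edgeR). In both, some embryos had more and some fewer alternate reads.

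In the deep stretch above *HOXD4B* all 6 sites heterozygous in every embryo had 593 to 2472 reads. C17788096A, the deepest, had an alternate share of 42.3 to 53.3% (median 47.1%). Its log2 ratio was -0.13 (SE 0.06), which did not pass in edgeR (adjusted p = 0.0899). The alternate base was in the minority in 10 of 12 embryos at this site.

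The single call near the cluster came from the same stretch. G17788303T, which is singled out here after its values were seen, had 48, 68, 67, 65, 60, 58, 29, 48, 50, 49, 65 and 62 alternate reads in embryos 1 to 12, against 63, 83, 93, 89, 66, 79, 51, 65, 59, 68, 61 and 54 reference reads. Reference reads were more frequent in all but embryos 11 and 12. The log2 ratio was -0.31 (SE 0.08, adjusted p = 0.00386 in edgeR), and the exact sign-flip test gave an adjusted p of 0.0516. The 5 other tested sites of the stretch did not pass, among them T17788254C with an alternate share of 50.5% (95% interval 48.0 to 53.1%).

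For comparison, the site A17782714G of *HOXD4B* had 59.7 to 82.7% alternate reads (median 75.9%), with more alternate reads in 12 of 12 embryos. The nearby T17782741G, G17782858A and T17782940A, not called heterozygous in every embryo, had pooled shares of 46.5, 46.9 and 55.6%. Pooled reads numbered 415 at T17782741G and 750 at A17782714G. The range of A17782714G did not overlap that of G17788303T (36.2 to 53.4%). The ranges of the 3 other called *HOXD4B* sites did: C17783250A had 18.2 to 53.5%, with fewer alternate reads like G17788303T, A17783616G had 47.3 to 69.8% and A17783618G had 49.0 to 71.4%. No test of these differences was made, as alternate bases at different sites need not come from the same parent.

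**Figure D3:**
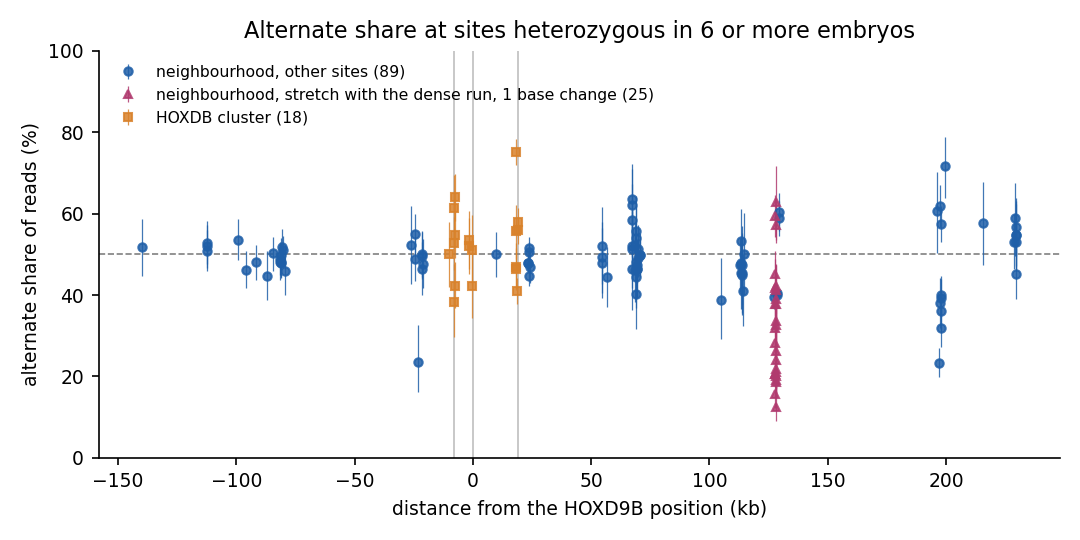
Alternate share of reads in percent (vertical axis), pooled over heterozygous embryos with exact 95% intervals, against the distance from HOXD9B in kb, for sites heterozygous in 6 or more embryos; the dashed line is 50% and grey lines are the HOXDB positions. Neighbourhood sites (blue) scatter around 50% with the lowest, C17961701G at 23.3% and A17741684C at 23.6%, on opposite sides of the cluster, and T-to-C sites of the stretch at 127.4 to 130.0 kb (pink triangles) lie between 12.5 and 62.9%.

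The splits among the embryos allowed reads to be given to 1 haplotype. Where some embryos are heterozygous and the others homozygous, the base missing from the homozygous embryos belongs to the haplotype that only the heterozygous ones carry. Over 45 sites of the 2 splits around embryo 1 and its classes, that base made up 28.2 to 61.2% of the reads (median 47.3%). The exact 95% interval held 50% at 34 of them, and 19 were above 50%. Sites with too few genotype calls were not among them. With reads pooled over embryos 2, 3, 5 and 11, their private base made up 66.0 to 76.6% at its sites from 17869827 to 17875094. It made up 71.0% at 17964369. It was the alternate base at all of these but 17869868 and 17871986. Between 17869827 and 17875094 the pooled private base of embryos 4, 6, 8, 9, 10 and 12 made up 37.7 to 54.3%. These pooled shares were not tested. In the stretch at 17826143, above the cluster, the base private to the class with embryos 4, 6, 8, 9, 10 and 12 had a median share of 51.8% over 11 sites (46.2 to 59.8%), and the one private to the class with embryos 2, 3, 5 and 11 had 44.8% over 6 sites (39.0 to 52.4%). At those 6 sites it was always the alternate base. The 11 sites included reference bases, at 17831641, 17833418, 17833574 and 17833641 (51.8 to 59.8%), so the 2 medians also differ in that respect.

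The interval left out 50% at the other 11 of the 45 sites, 6 of them above the cluster. The private base of the class with embryos 4, 6, 8, 9, 10 and 12 made up 59.8% at 17833418, 61.2% at 17869709, 36.8% at 17878317 and 34.8% at 17878320. That of the class with embryos 2, 3, 5 and 11 made up 39.2% at 17833831 and 37.0% at 17877931. Neither class was on 1 side of 50% at all of its sites. At all 11 sites the reference base was the more frequent one. Whether the shares followed the haplotype or the reference base was not tested.

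The 5 others form a pair of short groups below the cluster. At 17685245 and 17685246 the base private to embryos 2, 3, 5 and 11 made up 59.5 and 59.9% of the reads, with more such reads in all 4 embryos. At 17741630, 17741632 and 17741635 the private base made up 34.5, 30.7 and 28.2%, with fewer in all 4 heterozygous embryos. The sites of a group lie within a few bases and can share reads. At A17741684C, next to them, the alternate base made up 23.6% in 6 heterozygous embryos and was the rarer in all 6 (log2 ratio -1.71 ± 0.68, SD, n = 6), which did not pass the exact sign-flip test after adjustment (unadjusted p = 0.0312, the smallest that 6 embryos allow). This site and both groups were picked after their values were seen. With 4 embryos an exact sign-flip test cannot reach p = 0.05, so no test of the groups was made. The groups lie in different stretches. The private base was the more frequent in the first group and the rarer in the second. The reference base was the more frequent in both.

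**Figure D4:**
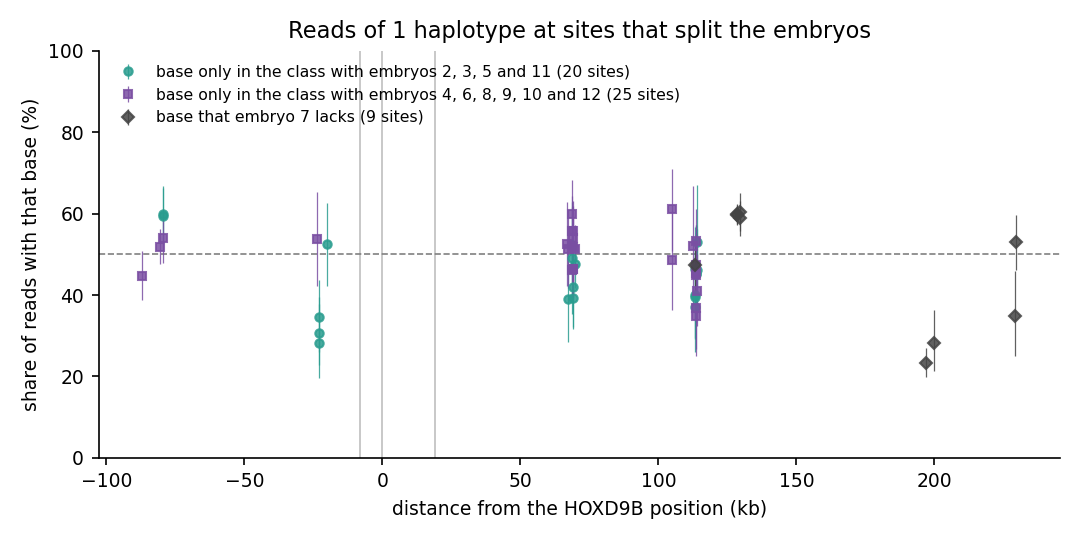
Share of reads in percent (vertical axis) that carry the base of 1 haplotype, with exact 95% intervals, at sites where the embryos split, against the distance from HOXD9B in kb; colours give the class that carries the base, and only sites with at least 3 heterozygous embryos are drawn. The 20 green and 25 purple sites lie between 28.2 and 61.2%, and the base that embryo 7 lacks (dark diamonds) is above 50% at 127.4 to 130.0 kb and below it at 196.3 to 200.8 kb. The other diamonds are at 47.4% (position 17877812), 34.9% (17993674) and 52.9% (17994228). Sites with too few genotype calls, some with pooled shares up to 76.6%, are not drawn.

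Beyond the cluster, the first of the stretches with calls held an unusual run of sites. Between 17892379 and 17892792, a span of 414 bp, 52 sites were listed, and 45 of them had at least 7 other listed sites within 50 bp, up to 17. Elsewhere in the neighbourhood the median was 1. Of the 52 sites, 50 were T-to-C changes from the reference base to the alternate base (96.2%), 1 was C-to-T and 1 C-to-A. T-to-C changes made up 16.7% of the rest of the neighbourhood and 12.6% of the rest of the genome.

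The C share pooled over these 50 sites differed little between embryos. It was 23.1% in embryo 6, the lowest, and 27.8% in embryo 7, the highest, with a median of 24.3%. From site to site it ranged from 1.17 to 91.0% (median 21.5%), and 40 of the 50 sites had both bases in 8 or more embryos. At single sites the embryos were further apart. The share was 19.0 to 46.3% at 17892603. At 17892706 it was 22.9 to 53.6% in the 11 heterozygous embryos, and embryo 7 was uncalled with 0 alternate and 7 reference reads. At 17892575 embryo 7 alone was called heterozygous, with 23.8%. Reads of low mapping quality were 1.79% of the raw reads in the run and 1.38% in the rest of the neighbourhood.

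Runs of this kind occurred elsewhere in the genome. With the same measure, 22268 sites (4.47% of those listed in at least 6 files) had 7 or more neighbours within 50 bp, and they formed 177 runs of at least 20 sites. In 17 of these runs 1 base change made up at least 90%: T-to-C in 12, A-to-G in 5 and any other change in 0. T-to-C on 1 strand is A-to-G on the other. Inosine, which enzymes make from adenosine in RNA, is read as G, so in RNA reads an edited base and a DNA difference look alike; the files hold no DNA genotypes, the counts carry no strand, and whether these positions differ in DNA was not tested.

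**Figure D5:**
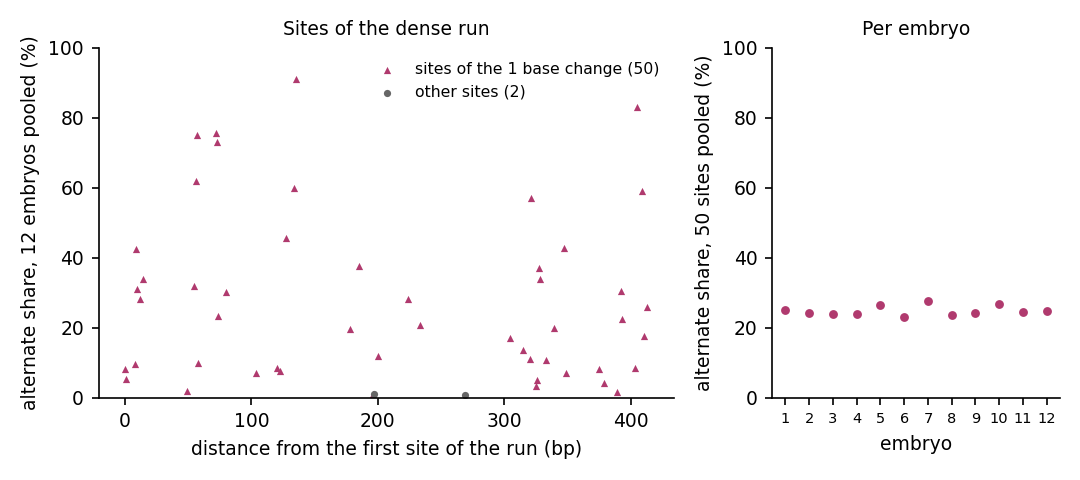
Left, alternate share in percent pooled over 12 embryos at each of the 52 sites of the dense run, against the distance in bp from its first site; right, the share pooled over the 50 sites of the common base change in each embryo. The 52 sites range from 0.692 to 91.0%, whereas the pooled shares of the 12 embryos lie between 23.1 and 27.8%.

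Of the 6 edgeR calls in this stretch, 5 were T-to-C sites, and of 12 calls by the sign-flip test, 9 were. T17892603C had an alternate share of 19.0 to 46.3% (median 27.0%) and a log2 ratio of -1.33 (SE 0.14, adjusted p = 1.47e-07 in edgeR). T17892612C had 15.8 to 29.0% (median 20.2%) and -1.93 (SE 0.12, adjusted p = 3.04e-11 in edgeR). T17892903C had 14.0 to 26.7% (median 20.0%) and -1.97 (SE 0.13, adjusted p = 8.23e-11 in edgeR). At all 3 the alternate base was the minority in 12 of 12 embryos, but sharing 1 direction was a condition of their choice.

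Sites that were not called as heterozygous in every embryo gave values of the same kind. T17892557C had an alternate share of 15.7 to 35.6% in 10 embryos (median 19.4%), with an adjusted p of 0.0369 in the exact sign-flip test. That call was lost in 10 of 12 repeats without 1 embryo (adjusted p up to 0.0587 in the exact sign-flip test). Embryos 7 and 8 had 9.52 and 8.11%, under the 10% limit of a heterozygous call. The range, median and test of T17892557C therefore leave out its lowest shares. T17892707C had 13.8 to 42.9% in 11 embryos (median 33.3%), with an adjusted p of 0.0256 in the same exact test. Both are T-to-C sites of the run.

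Several sites of this stretch set embryo 7 apart, most of them with other base changes. At G17893148C embryo 7 had 64 alternate and 0 reference reads, and the 11 other embryos were heterozygous with 75, 101, 88, 61, 56, 54, 53, 40, 37, 68 and 40 alternate reads, against 85, 116, 107, 127, 76, 85, 100, 72, 60, 88 and 78 reference reads. Reference reads were more frequent in all 11. The base that embryo 7 lacks, which marks the haplotype shared by the 11 others, thus made up 59.6% (95% interval 57.2 to 62.0%), with a log2 ratio of 0.60 ± 0.32 in its favour (SD, n = 11, exact sign-flip adjusted p = 0.0256). At the neighbouring G17893156A it was 59.9%. The share differed between the classes of embryos: at G17893148C it was 61.2 to 67.6% in embryos 4, 6, 8, 9, 10 and 12, and 53.1 to 57.6% in embryos 1, 2, 3, 5 and 11. The ranges did not overlap at G17893156A either, and this difference, seen after the fact at sites that share reads, was not tested.

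More than 1 kb away, 2 further sites pointed the same way without passing the test. At 17894285 and 17894293, where the base that embryo 7 lacks is the alternate one, it made up 58.8 and 60.4% and was more frequent in 9 of 11 embryos. Their exact sign-flip adjusted p was 0.342 and 0.238. At all 4 sites the haplotype shared by the 11 embryos had shares of 58.8 to 60.4%. Its base was the reference in the first pair of sites and the alternate in the second. The sites of a pair lie a few bases apart and can share reads. Whether the shares followed the haplotype was not tested. A17892078T, heterozygous in all embryos, had an alternate share of 23.9 to 48.4% and fewer alternate reads in 12 of 12 embryos (log2 ratio -0.64, SE 0.11, adjusted p = 9.13e-05 in edgeR).

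The second stretch ran from 17960921 to 17965420. At sites where embryo 7 alone lacks a base, the shares lay farther from an equal split than in the stretch at 17892078. At C17961701G embryo 7 had 0 alternate and 106 reference reads. The other 11 embryos had 5, 12, 9, 15, 11, 10, 19, 7, 9, 27 and 6 alternate reads, against 39, 52, 41, 47, 37, 47, 31, 34, 30, 43 and 26 reference reads. The base that embryo 7 lacks made up 23.3% (95% interval 19.9 to 27.1%), with fewer such reads in 11 of 11 embryos and a log2 ratio of -1.86 ± 0.68 (SD, n = 11, exact sign-flip adjusted p = 0.0256). At 17964347 its share was 28.3% in 8 embryos, with an adjusted p of 0.0850 in the exact test. Here the haplotype shared by the 11 embryos was thus the less read one, in contrast to the stretch at 17892078, and the difference between the 2 stretches was not tested.

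G17962592T had 14.7 to 46.9% alternate reads (median 30.2%), fewer than reference reads in 12 of 12 embryos, and a log2 ratio of -1.10 (SE 0.17, adjusted p = 3.20e-05 in edgeR). Having 1 direction in all embryos was a condition of its choice. C17962498G had a log2 ratio of -0.84 (SE 0.15, adjusted p = 1.37e-04 in edgeR) and fewer alternate reads in 11 of 12 embryos. At C17962533A and T17962534C, adjacent bases, embryo 7 stood apart with 74.1 and 74.6% alternate reads. The others had 17.1 to 46.2% at both sites. The reverse held at G17962542T, which did not pass edgeR's threshold: 23.4% in embryo 7, and 49.0 to 79.5% in the others.

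Several sites of this stretch followed none of the splits, and genotype calls there changed between sites a few bases apart. At 17961739 embryos 10 and 11 were heterozygous and the other called embryos homozygous for the reference base. At 17962027 embryos 7, 10 and 11 were heterozygous, at 17962743 embryos 5, 7, 8 and 10, and at 17962754 embryos 1, 5, 7, 8 and 10. Apart from embryo 7, these embryos had 2 to 7 alternate reads each, so the calls lay close to the 10% limit. Low mapping quality reads made up 1.23% of raw reads in the stretch, a share close to that of the neighbourhood (1.45%) and below that of the rest of the genome (7.99%).

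At the upper end of the interval the shares at sites heterozygous in 6 or more embryos were again near 50%. The highest site, T17994268G, had 29.2 to 60.0% alternate reads (median 45.0%) and a log2 ratio of -0.27 (SE 0.16, adjusted p = 0.228 in edgeR). The 7 sites of its stretch that were heterozygous in 6 or more embryos had pooled shares of 45.2 to 58.9%, and 0 of 7 passed the sign-flip test. The remaining sites that represent a stretch were also uncalled by that test, with pooled alternate shares of 50.9% at A17652348T, 44.3% at T17821384A, 51.2% at A17834566G, 53.2% at C17878169T and 57.7% at C17980145G. At C17774588T alternate and reference reads were equal in number over its 10 heterozygous embryos. Each of these sites had embryos on both sides of an equal split.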

How the data were processed

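The deposited values are whole-number counts, 1 file per embryo. The authors trimmed reads (cutadapt 2.4 under Trim Galore), mapped them with STAR to *gasAcu1-4* and counted reads per base at variant sites with the allele counter of GATK 4.1.4.1; the deposited counts are not normalized. Reads of low mapping quality and other bases stand in separate columns. Mapping to 1 reference can favour the reference base. The library kit keeps strand, but the counts do not. PCR duplicates carry no molecular identifiers.

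Sites were joined by chromosome, position and bases (Python 3.11.15, numpy 2.4.6, pandas 2.3.3, scipy 1.17.1). Genotypes followed the thresholds given above. edgeR 4.0.16 (R 4.3.3) was fitted to all sites in the genome heterozygous in 12 embryos, with 2 columns per embryo, 1 library size per embryo and the embryo as a block, since both columns come from the same embryo. The exact sign-flip test used the log2 ratios of at least 6 heterozygous embryos, with adjustment over 94730 sites. Its smallest p with 12 embryos is 4.88e-04. The SE given with edgeR is the absolute log2 ratio divided by the square root of the test's F statistic. DESeq2 1.42.0 served as an alternative. The scripts were tested on simulated data. Over 66 pairs of embryos the mean chi-square per site was 1.61 to 2.84, so no 2 files were taken for the same library. Nothing in the labels gives further batches. Pooled shares have exact (Clopper-Pearson) 95% intervals.

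Sites named in the text are, in each stretch with 3 or more sites, the deepest site heterozygous in at least 6 embryos; up to 10 called sites with the largest log2 ratio and 1 direction in all 12 embryos, at most 3 per stretch; the 5 segregating sites with the smallest sign-flip p; and the sites at the edges. Sites used to describe haplotypes and single calls were added after their values were seen. The members and lists were chosen with earlier results of these data known. The embryos are labelled as separate samples of 1 cross. No genome of this assembly was used, so no sequence is shown.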

Additional observations from a re-analysis of the deposited data

How the results depend on the processing

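Sites called by edgeR numbered 11. There were 8 with no replicate block (the pairing of 2 columns per embryo removed), 11 with DESeq2 under either scaling, 9 against the genome-wide median ratio and 13 with heterozygous calls above 5%. There were 5 with at least 20 reads, 22 with no read minimum, 5 with heterozygous calls from 20%, and 4 when a log2 ratio of at least 1 in size was also required; these settings change which sites are tested or the size needed. Over the genome, 6950 calls became 4282 with no replicate block and 11574 with no read minimum. Leaving out 1 embryo at a time gave 9 to 21. The 21, of 54 tested, came without embryo 7, which had the fewest reads and alone was homozygous at 8 sites. Of these 21 calls, 4 had more alternate reads. Chosen after seeing the data, leaving out the T-to-C sites of the stretch at 17892078 left 6 edgeR calls and leaving out both stretches with calls left 1. The sign-flip test called 15 sites, 6 without those T-to-C sites and 0 without both stretches, 10 to 22 under its planned settings and 12 to 18 without single embryos.

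Sites heterozygous in all embryos numbered 40, 23 with at least 20 reads, and 40 to 54 without single embryos. The median alternate share of 47.8% was 49.0% without the T-to-C sites, a move larger than the spread of 0.983 percentage points between embryos, and 47.4 to 48.3% without single embryos. There were 23 stretches, 37 with a gap of 1 kb and 14 with 5 kb. Sites that follow a split numbered 82, and 20 with at least 20 reads. The median RPM (334) were 320 to 348 without single embryos. Of the named sites, T17892557C lost its call in 10 of 12 fits that left out 1 embryo (adjusted p up to 0.0587 in the exact sign-flip test), C17788096A gained one without embryo 10 (adjusted p = 0.0439 in edgeR), and G17788303T lost it in the sign-flip test; no direction of a called site changed. In 171 of 429 sites no embryo had enough reads for a genotype, so allele shares could not be compared there.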
